A study of Mus musculus with 2 samples.

Results

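Chromosome 7 carried 591 of the 7893 p53 peaks that the authors called in embryonic mouse kidney, and all 591 are described here. They were taken by their chromosome in the deposited list, in the mm9 genome build. The chromosome was chosen by its number of peaks in this list, which was low for its number of genes, so that number is a description and is not tested.

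The study used chromatin immunoprecipitation followed by sequencing (ChIP-seq), in which DNA fragments fixed to a protein are recovered with an antibody and sequenced. It holds 1 ChIP library, for which a p53 antibody was used, and 1 library of input DNA, made without an antibody. Both came from kidney of wild-type C57BL mice at E15.5, a stage counted in embryonic days. The labels do not give the number or sex of the embryos, and whole kidney mixes many cell types, so a peak cannot be assigned to one of them. Peaks exist for the p53 library only among the data used here, and that library has no replicate. No difference below carries a replicate error or a test for that reason. Intervals are exact at the 95% level, treat peaks as independent and cover counting error only. Peaks carry no known cell type markers, so the tissue label was not checked.

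p53 is a transcription factor that binds DNA as a tetramer and switches on genes of cell cycle arrest, apoptosis, DNA repair and metabolism. In unstressed cells it is kept low by the ubiquitin ligase Mdm2, and the balance of p53 and Mdm2 is known to matter for the growing kidney. Mouse chromosome 7 holds textbook p53 targets such as Bax and Bbc3, both drivers of apoptosis, and imprinted genes such as Igf2, H19 and Cdkn1c, which control growth. It also holds large families of olfactory and vomeronasal receptor genes, which are known for expression in single sensory neurons of the nose and for silence in most other tissues.

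Gene families repeated side by side made up much of the chromosome's gene number. The RefSeq gene table (assembly GRCm38.p6, used for gene numbers, names and order only) placed 2030 protein-coding genes on chromosome 7. Of these, 239 were olfactory receptor genes (Olfr), 126 were type 1 vomeronasal receptor genes (Vmn1r) and 52 were type 2 vomeronasal receptor genes (Vmn2r). Chromosome 7 thus held 54.5% of all Vmn1r, 41.9% of all Vmn2r and 21.5% of all Olfr genes in the table, and 9.27% of all protein-coding genes. The 417 receptor genes were 20.5% of the genes of chromosome 7, compared with 5.59% on the other autosomes together.

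In gene order, chromosome 7 had 40 runs of at least 5 neighbours whose symbols start with the same letters, and these runs held 512 genes. Receptor genes made 24 of the runs, with 340 genes. The longest was a run of 42 Olfr genes from Olfr467 to Olfr519, between Ovch2 and Nlrp10. Another 16 Olfr genes, from Olfr66 to Olfr646, began next to Hbb-y, an embryonic beta globin gene. A run of 5, from Olfr543 to Olfr549, lay next to Rrm1, which encodes a subunit of ribonucleotide reductase, the enzyme that makes DNA building blocks. The longest Vmn1r run held 15 genes (Vmn1r167 to Vmn1r181) and the longest Vmn2r run held 16 (Vmn2r30 to Vmn2r37). Outside the receptors, 35 secretoglobin genes (Scgb), 26 kallikrein protease genes (Klk) and 11 pregnancy-specific glycoprotein genes (Psg) each formed 1 run. No mm9 annotation was used, so neither these runs nor Bax, Bbc3 or the imprinted genes could be placed on the bins or peaks below.

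The low number of peaks per gene was less marked when receptor genes were left out. With all protein-coding genes, chromosome 7 had 29.1 peaks per 100 genes (95% Poisson interval 26.8 to 31.6), the lowest of the 19 autosomes and 75.6% of the 38.5 of the other autosomes pooled. The next lowest was chromosome 6, with 32.3. Without olfactory and vomeronasal receptor genes on any chromosome, the value of chromosome 7 was 36.6 (33.7 to 39.7), which was 89.8% of the 40.8 of the others. Chromosomes 6, 14 and 1 were then lower, at 35.1, 35.4 and 36.2. Without predicted (Gm) genes as well, it was 38.7 peaks per 100 genes, or 90.2% of the pooled others. Counting each run of like-named neighbours as 1 gene gave 37.9, or 87.5% of the others. Chromosome 7 lay below the pooled value of the other autosomes with each of the 4 gene counts, all of which use the same peaks. The chromosome was chosen for a low value, so this is a description.

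**Figure D1:**
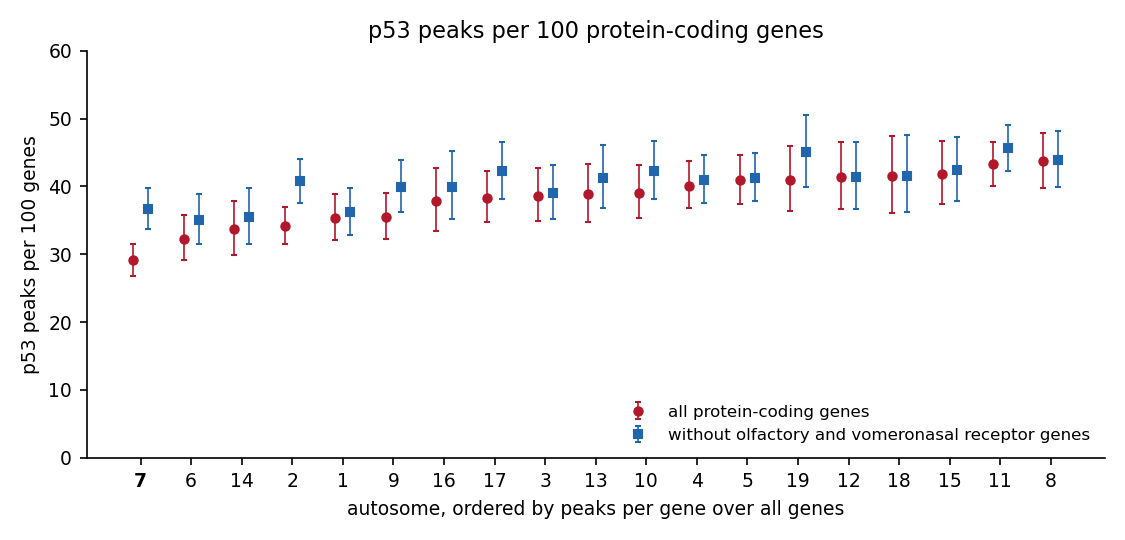
p53 peaks per 100 protein-coding genes (vertical axis) on each of the 19 autosomes (horizontal axis), over all genes (circles) and without olfactory and vomeronasal receptor genes (squares). Bars are exact 95% Poisson intervals of the peak number; chromosome 7 is lowest over all genes at 29.1 and reaches 36.6 without receptor genes.

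Measured by length, the chromosome was not short of peaks. Its peaks spanned 149 Mb, from 3290145 to 152217599, which gave 3.97 peaks per Mb. The value was higher on 3 other autosomes and lower on 15, whose range was 2.21 to 5.87 with a median of 3.20. Its 591 peaks were 7.49% of the list (95% interval 6.92 to 8.09), and 2 chromosomes held more: chromosome 11 with 696 and chromosome 2 with 609. All 591 peaks together covered 0.578 Mb.

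Peaks were unevenly spread along the chromosome. It was divided into 31 bins of 5 Mb from position 0, numbered from 1, and each peak was put in the bin of its midpoint. Bin 6 (chr7:25000001-30000000) held the most, 62 peaks (95% interval 47.5 to 79.5). Bin 11 (chr7:50000001-55000000) held 57, bin 27 (chr7:130000001-135000000) held 50, bin 30 (chr7:145000001-150000000) held 41 and bin 22 (chr7:105000001-110000000) held 38. These 5 bins, 16.1% of the bins, contained 248 peaks or 41.96% of the total (95% interval 37.9 to 46.1). The same share was 35.96% on chromosome 2, in 13.5% of its bins, and 43.8% on chromosome 11, in 20% of its bins. It was higher than on chromosome 7 on 13 of the other 18 autosomes, whose median was 46.1%, and 5 bins are a larger part of a shorter chromosome.

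Bin 9 (chr7:40000001-45000000) was the only bin of chromosome 7 without a peak, which allows a mean of up to 3.69 peaks by the same interval. Over the autosomes, leaving out the first and last bin of each, 17 of 465 bins (3.66%) had none. Bin 13 (chr7:60000001-65000000) held 1 peak, bin 14 (chr7:65000001-70000000) held 3 and bin 10 (chr7:45000001-50000000) held 5. Full and thin bins were neighbours in several places. Bin 11, with its 57 peaks, lay between bins of 5 and 6 peaks, and bin 22, with 38, lay between 2 bins of 6 peaks each. The intervals of the full bins and their thin neighbours did not overlap in these 2 places. The places were named for this contrast, so it is a description.

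**Figure D2:**
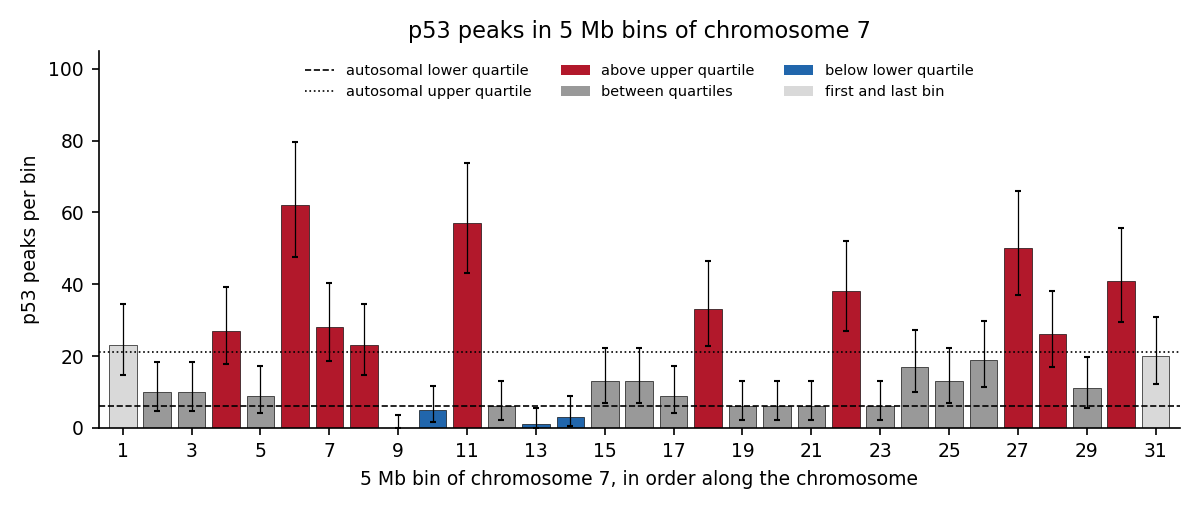
Number of p53 peaks (vertical axis) in the 31 bins of 5 Mb of chromosome 7, in order along the chromosome (horizontal axis), with exact 95% Poisson intervals. Lines mark the quartiles of autosomal bins, 6 and 21 peaks; bins 6 and 11 reach 62 and 57 peaks and bin 9 has none.

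The bins were then set against the quartiles of all autosomal bins, which were 6 and 21 peaks, with a median of 11. Of the 29 inner bins of chromosome 7, 10 (34.5%) lay above the upper quartile, compared with 24.3% of the 465 autosomal bins. Another 4 (13.8%) lay below the lower quartile, compared with 23.2%. The 10 dense bins held 385 peaks, 65.1% of the chromosome's total, and the 4 sparse bins held 9 peaks. The variance of the inner bins was 15.2 times their mean. Other autosomes ranged from 6.23 to 18.95 times, with a median of 11.3, and 6 of them were higher.

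Of the 29 inner bins of chromosome 7, 13 were thin, with 10 or fewer peaks each. Over the autosomes, 47.5% of the 465 inner bins held as few, so such bins were not particular to this chromosome. The 13 thin bins together held 77 peaks, or 13.0% of the total. They lay in 7 places, of which 3 were single bins (5, 17 and 23). The longest were bins 12 to 14 (chr7:55000001-70000000), with 10 peaks in 15 Mb, and bins 19 to 21 (chr7:90000001-105000000), with 18 in 15 Mb. Bins 9 and 10 held 5 peaks in 10 Mb. Near the start of the chromosome, bins 2 and 3 (chr7:5000001-15000000) held 20 peaks in 10 Mb, and bin 5 (chr7:20000001-25000000) held 9. By contrast, bins 6 to 8 (chr7:25000001-40000000) held 113 peaks in 15 Mb, a density of 7.53 peaks per Mb, compared with 0.667 in bins 12 to 14. Bins 27 and 28 (chr7:130000001-140000000) held 76, or 7.6 per Mb.

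The longest stretch between neighbouring peaks measured 7.76 Mb (chr7:39013470-46772720) and contained all of bin 9. The next were 5.81 Mb (chr7:7253305-13063245), 5.41 Mb (chr7:91139873-96551836), 4.57 Mb (chr7:20395095-24960207) and 4.04 Mb (chr7:59262035-63305120). These 5 stretches added up to 27.6 Mb, or 18.5% of the length between the outermost peaks. Whether they hold olfactory or vomeronasal receptor genes was not tested, since no gene positions in mm9 were used.

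The 10 peaks that flank the 5 longest stretches had scores between 60.2 and 127, next to quartiles of 72.9 and 143 over the chromosome. The score is the authors' value for each peak, as deposited. MACS, the peak caller named in the file, writes -10 times the log10 of the p-value in this place, and the file does not state the scale. Over the whole list the score ran from 60.01 to 3100. The 7.76 Mb stretch lay between peaks that scored 76.5 and 79.5. The 5.81 Mb stretch began after a wide peak, 2542 bp with a score of 126, and ended at one of 1164 bp that scored 87.1. The weakest flanking peak, at 60.2 and 374 bp wide, stood before the 5.41 Mb stretch.

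Between the long empty stretches, peaks followed each other closely. The median distance from the end of a peak to the start of the next was 54.6 kb (quartiles 18.8 and 190 kb). It was 51.6 kb on chromosome 11 and 93.1 kb on chromosome 2, and the median of the other 18 autosomes was 98.9 kb. Chromosomes 11 and 17 were lower than chromosome 7, and 16 autosomes were higher. Yet 32 stretches of chromosome 7 were longer than 1 Mb, and they made up 80.3 Mb, or 53.9% of its span. That share was 39.1% on chromosome 11 and 50.2% on chromosome 2. It was higher than on chromosome 7 on 8 autosomes and lower on 10.

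**Figure D3:**
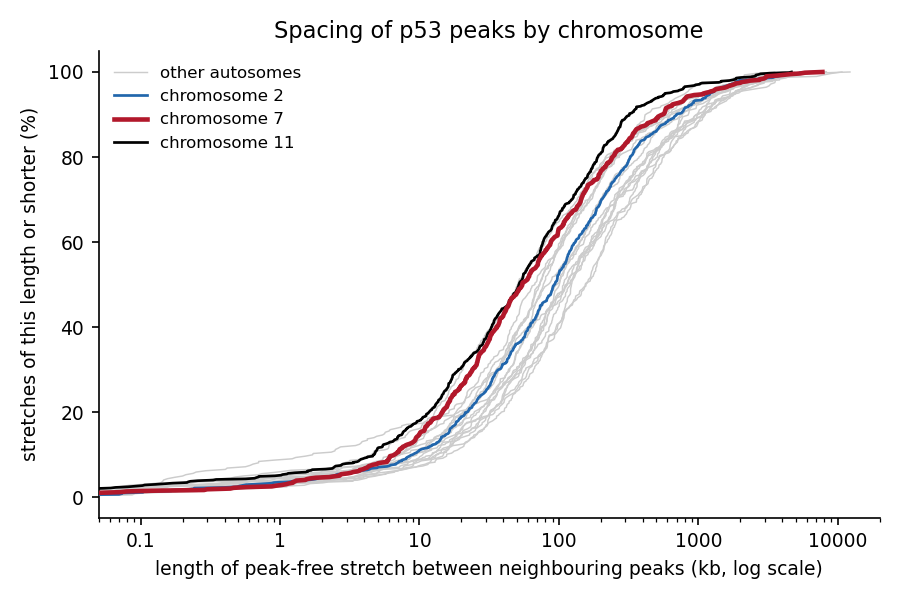
Share of peak-free stretches (vertical axis, %) that are as long as or shorter than the length on the horizontal axis (kb, log scale), 1 line per autosome. The line of chromosome 7 runs near that of chromosome 11 at short lengths, with medians of 54.6 and 51.6 kb, and reaches 7.76 Mb at its longest.

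The fullest 1 Mb of the chromosome lay in bin 11. At chr7:52070686-53070087 it held 39 peaks, whose scores ran from 61.1 to 771 (median 102). The fullest 1 Mb of the other autosomes held 13 to 48 peaks, and 2 of these chromosomes had more than 39. The next on chromosome 7 were 31 peaks in bin 27 (chr7:133618116-134615211), with a median score of 113, and 24 in bin 30 (chr7:148041997-148748579), with a median score of 92.7. Bin 30 had no peak with a score of 300 or more, and its highest was 235.

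At the scale of 100 kb the most was 8 peaks, a number that 6 other autosomes exceeded. It was reached in bin 11, at chr7:52225518-52318151, and again in bin 30, at chr7:148599773-148667767. The 8 peaks in bin 11 scored, in order along the chromosome, 115, 771, 95.2, 102, 82.8, 78.6, 200 and 72.9. A single strong peak of 2345 bp stood there among 7 of lower score. In bin 30 the scores of the 8 ran from 61.5 to 177, with a median of 79.1.

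Of the 591 peaks, 138 (23.4%, 95% interval 19.995 to 26.97) had another midpoint within 10 kb, compared with 19.8% of all peaks. The share was 30.7% on chromosome 11 and 18.7% on chromosome 2. These peaks formed 62 groups, of which 50 were pairs, 10 had 3 members and 2 had 4. Bin 30, with 41 of the 591 peaks, contained 4 of the 12 groups with 3 or more members. The 4 members of the group at chr7:77494986-77510577 scored 88.8, 160, 307 and 60.3. Those of the group at chr7:152123272-152129809 scored 60.9, 106, 125 and 61.5. In both, the inner peaks scored higher than the outer ones. The median score was 91.5 for peaks with a close neighbour and 99.2 for the rest, at median widths of 951 and 879 bp. These medians are given without intervals and without the same split on other autosomes. After neighbours with a gap of at most 1 kb were joined, 575 regions remained, and 18.96% of these had a neighbour within 10 kb. The share over all peaks was not computed after joining, so the 19.8% above is not its background.

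Scores on chromosome 7 were close to those elsewhere. The median was 97.0 (quartiles 72.9 and 143), compared with 97.3 on the other autosomes pooled, 94.0 on chromosome 2 and 102 on chromosome 11. Its 95% interval, 91.0 to 102, included the pooled value. A score of 100 or more was reached by 280 peaks (47.4%), next to 47.6% over all peaks. A score of 300 or more was reached by 37 peaks, or 6.26% (95% interval 4.45 to 8.53), next to 4.87%. The interval contained this background. At 1000 or more there were 3 peaks, or 0.508%, next to 0.557%.

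The median width of the peaks exceeded that of 14 autosomes and was below that of 4. It was 898 bp (95% interval 852 to 945), compared with 875 bp on the other autosomes pooled, a value inside that interval. The widths ran from 285 to 3581 bp. Higher-scoring peaks were wider, with a median of 743 bp for scores under 100 and 1192 bp for scores of 300 or more. Spearman's rho of score and width was 0.51 across the 591 peaks, and other autosomes ranged from 0.50 to 0.62. Both values come from the same reads and the same caller, so the correlation is a description.

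The highest-scoring peak of chromosome 7 lay at chr7:118225346-118227762, in bin 24, with a score of 2978 and a width of 2417 bp. Its rank in the whole list was 16, after 15 peaks that all had the highest score of the list, 3100. The bin around it was of middling density, with 17 peaks and a median score of 94.9. The nearest other peak was 39.6 kb away between midpoints, and 3 peaks lay within 500 kb.

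The next was a sharp peak of 757 bp with a score of 2255, at chr7:108444911-108445667 in bin 22. It was narrower than the median peak of the chromosome. It began a group of 3 whose other members, at chr7:108450144-108451044 and chr7:108458635-108459650, scored 63.3 and 102. The third, of 1015 bp with a score of 1287, stood alone at chr7:120350359-120351373 in bin 25, with its nearest neighbour 162 kb away and 2 peaks within 500 kb. These 3 peaks, the ones above 1000, lay in bins 22, 24 and 25.

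Below them, the next scores in order were 874, 862, 802, 771 and 685. The peak at 874 (chr7:29593762-29597342) was also the widest of the chromosome, at 3581 bp, and lay in bin 6, the fullest bin. The peak at 862 (chr7:129244781-129245763) was 983 bp wide, and the one at 802 (chr7:107520046-107521196) was 1151 bp wide. The peak at 771 (chr7:52240727-52243071) had 31 others within 500 kb, the most crowded place among the 20 highest. The peak at 685 (chr7:91040188-91041160) lay in bin 19, which held 6 peaks in 5 Mb. A peak of 1503 bp with a score of 289 stood 7.97 kb from it.

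The remaining 12 of the 20 highest-scoring peaks scored from 385 to 607. Among them were a peak of 580 bp at 607 (chr7:71471852-71472431) and one of 640 bp at 566 (chr7:53857280-53857919), both narrower than the lower quartile of width, 673 bp. A peak of 2287 bp at 541 (chr7:52123654-52125940) lay in the fullest 1 Mb. A peak of 1085 bp at 528 (chr7:133646667-133647751) had another midpoint 1.24 kb away. A peak of 1089 bp at 444 (chr7:75893564-75894652) had its nearest neighbour at 258 kb and 1 other peak within 500 kb. Of the 20, 12 (60%) lay in dense bins, next to 65.1% of all peaks of the chromosome. At least 2000 bp was reached by 4 of them, and 3 were no wider than the chromosome's median. They were spread over 14 bins.

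**Figure D4:**
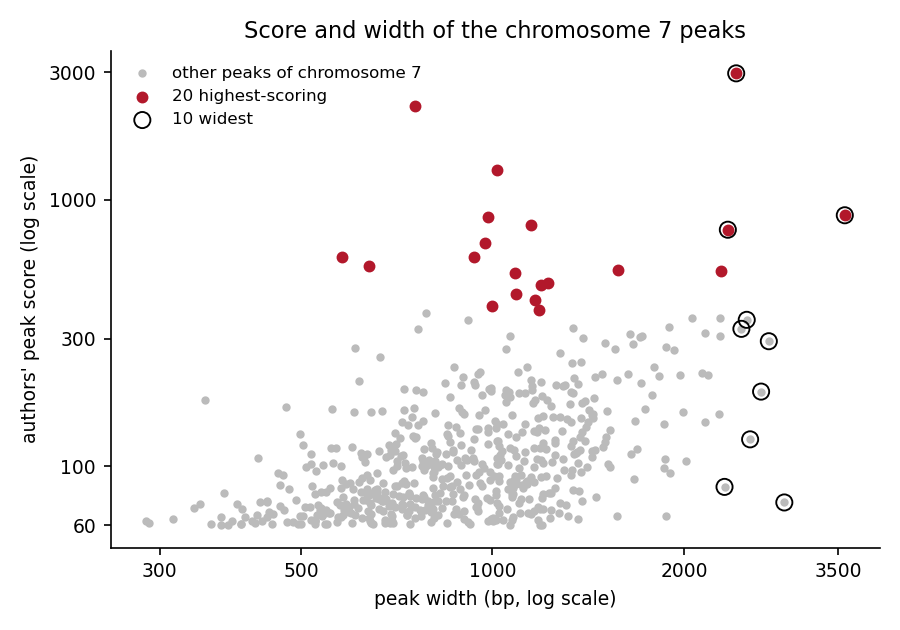
Score given by the authors (vertical axis, log scale) against width (bp, horizontal axis, log scale) for the 591 peaks of chromosome 7, with the 20 highest-scoring and the 10 widest marked. The 2978 peak is among the 10 widest, whereas the 2255 peak is 757 bp wide, below the median of 898 bp.

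The widest peaks covered a broad range of scores, most of them high. Of the 10 widest, 5 scored 300 or more, next to 6.26% of all peaks of the chromosome, and 3 were among its 20 highest-scoring. Another 2 scored below 100, next to 52.6% of all its peaks. The second widest, 2877 bp at chr7:134887747-134890623, scored 73.1 and lay in bin 27. A peak of 2317 bp at chr7:117757186-117759502 scored 83.6. The next widest, 2720 bp (chr7:16984588-16987307) and 2645 bp (chr7:90013911-90016555), scored 294 and 190. A peak of 2511 bp at chr7:35438662-35441172 scored 354 and was the strongest of bin 8. A peak of 2463 bp at chr7:135018608-135021070 scored 328.

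Strong peaks occurred in full bins and in thin ones. The 37 peaks with a score of 300 or more were spread over 20 of the 31 bins. Bin 11 held 4 of them, bins 4, 6, 16, 26, 27 and 28 held 3 each, and bins 22 and 25 held 2 each. Bin 16 did so with 13 peaks in all, whereas bin 6 had 62. In the dense bins 21 of 385 peaks (5.45%, 95% interval 3.41 to 8.22) reached 300, and in the bins between the quartiles 14 of 154 did (9.09%, 5.06 to 14.8). The intervals overlapped. None of the 9 peaks in sparse bins did, which allows up to 33.6%. On the other autosomes the shares were 5.48%, 4.08% and 3.70% in dense, middle and sparse bins.

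The strongest peak of a thin bin could be high. In bins with 10 or fewer peaks it ranged from 87.4 in bin 23 (chr7:112781866-112782483) to 685 in bin 19. It was 334 in bin 17 (chr7:80762094-80763987), 307 in bin 2 (chr7:5012345-5014624) and 306 in bin 20 (chr7:97590793-97592501). It was 219 in bin 3 (chr7:13608264-13610232), 192 in bin 12 (chr7:56135891-56136884) and 173 in bin 21 (chr7:100022588-100023972). In bin 5 it was 147 (chr7:20300471-20301883), in bin 14 it was 115 (chr7:66483674-66484597) and in bin 10 it was 115 (chr7:46807452-46808902). The lone peak of bin 13 (chr7:63305121-63305875) scored 127. Thin bins therefore included both weak maxima and a peak of the top 10.

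Of the 77 peaks in thin bins, 4 (5.19%, 95% interval 1.43 to 12.8) reached 300, next to 33 of 514 (6.42%, 4.46 to 8.90) in the others. Their median score was 87.4 (95% interval 79.5 to 115) and that of the others 98.1 (91.6 to 102). Their median width was 846 bp (731 to 1015) and that of the others 903 bp (859 to 949). The intervals overlapped for all 3 measures.

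Dense and middle bins had like medians, 98.7 (95% interval 90.2 to 103) and 99.3 (87.4 to 113), and the 9 peaks of sparse bins had 79.5 (67.1 to 115). With bins shifted by 2.5 Mb the order turned, to 107 in sparse and 99.5 in dense bins. On the other autosomes, in bins that were not shifted, the medians were 99.6, 94.6 and 90.8. Across the 28 bins of chromosome 7 with at least 5 peaks, the bin medians of score ran from 70.1 in bin 21 to 143 in bin 25. Their Spearman's rho with the number of peaks was 0.01, and that of the bin medians of width was 0.44. These bins are parts of 1 library and share its depth, so both are descriptions. In dense bins 28.1% of peaks had a neighbour within 10 kb, in middle bins 11.7% did, and in sparse bins 2 of 9 did (22.2%, 95% interval 2.81 to 60.01). The shares were 25.1%, 12.9% and 5.39% on the other autosomes. The bins were classed by their number of peaks, so these shares are not independent of the classes.

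**Figure D5:**
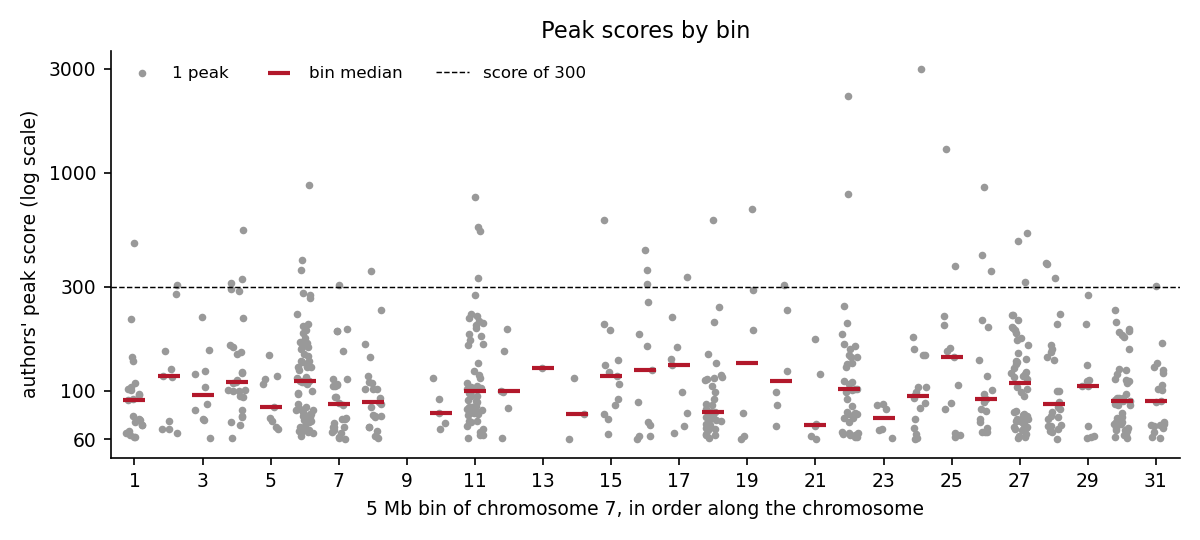
Score given by the authors (vertical axis, log scale) of each of the 591 peaks by 5 Mb bin, in order along chromosome 7 (horizontal axis), with the median of each bin as a bar and a line at a score of 300. Points above the line occur in 20 bins, and the 3 scores above 1000 lie in bins 22, 24 and 25.

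Among bins with more than 10 peaks, the strongest peak was weakest in bin 30, at 235 (chr7:148725395-148726263), and in bin 29, at 275 (chr7:140122312-140123361). It was 304 in bin 31 (chr7:150734072-150735460), 307 in bin 7 (chr7:30022787-30023852) and 385 in bin 28 (chr7:135604684-135605868). It was 479 in bin 1 (chr7:4690837-4692028) and 543 in bin 4 (chr7:17508798-17510375). In bin 18 it was 607 (chr7:86804547-86805482). Bin 30 thus combined 41 peaks with the lowest maximum of these bins.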

How the data were processed

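The authors deposited 1 peak list, from the p53 library, and input data were not analysed here. Peaks were called with MACS on build mm9, per the submitters' processing notes. The aligner, the version and settings of MACS and the use of the input are not stated in the labels or the file header. The score is the deposited value of each peak, with a scale the file does not state. Sequencing depth is unknown, since the list gives no read counts. Starts are given 1-based.

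Members and lists were chosen with earlier results of these data known. Peaks were binned by midpoint, and closeness was measured between midpoints. Dense and sparse bins lie above and below the quartiles of 465 inner autosomal bins. Share intervals are Clopper-Pearson, those of numbers Poisson, and those of medians come from order statistics with the binomial, all at 95%. No test was run, since each group has 1 library. The calculations were tested on simulated data. Gene numbers and order came from the RefSeq table of GRCm38.p6, none of whose coordinates was used. No genome in mm9 was used, so no sequence is shown and no gene is assigned to a peak. The planned gene lists were therefore not set against peaks.

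Named peaks are the 20 highest-scoring, the 10 widest, the highest of each bin, those beside the 5 longest stretches and those of the fullest 1 Mb and 100 kb, of which a part is printed. Peaks of close groups, the neighbour of the bin 19 peak, the limit of 10 peaks for thin bins and the count of runs as 1 gene were chosen after values were seen. Alternatives were a score of at least 100, merging within 1 kb, leaving out the widest 1%, other bins, distances and gene counts. Software was numpy 2.4.6, scipy 1.17.1, pandas 2.3.3 and matplotlib 3.10.9 under Python 3.11.15.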

Additional observations from a re-analysis of the deposited data

How the results depend on the processing

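Of 50 alternative values for 12 results, 32 stayed within their limits and 18 moved. The limit was the 95% interval, a change of 0.1 in rho, or 1.5 times for numbers, lengths and the variance ratio. A score of at least 100 left 280 peaks, 13.8 per 100 genes and 2 bins without a peak. The variance of the bins was then 8.80 times their mean, the median score 147 (147.4 in dense bins), the median width 1064 bp, rho 0.34 and the share with a neighbour within 10 kb 8.57%. The lower peak numbers and the higher median scores follow from the filter itself. For the other changes, rho and width among them, the cause was not tested. Under this filter chromosome 7 stayed lowest of the 19 autosomes per gene, at 74.8% of the others. Without receptor genes it then had 17.4 peaks per 100 genes, or 88.8% of the others, and 2 autosomes were lower. Merging within 1 kb gave 18.96% with a neighbour, because merged pairs no longer count. Bins shifted by 2.5 Mb left 2 bins empty, bins of 2 Mb 14 and bins of 10 Mb 0. Peaks per 100 genes were 36.6 without receptor genes, 38.7 without predicted genes as well and 37.9 with runs as 1 gene, a count added after seeing the data. The share with a neighbour was 1.69% within 1 kb and 80.2% within 100 kb. Shares with a neighbour under these alternatives were computed for chromosome 7 only, so they have no background. With shifted bins the median score of sparse bins was 107, above the 99.5 of dense bins, so their order, from few peaks, turned. No paired analysis was possible because there is 1 library a group. The list gives no depth, so whether thin bins would gain peaks with more reads cannot be judged.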
